A study of Mus musculus with 202 samples.

Results

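The unexposed control of this study is the mouse egg arrested at metaphase II (MII) from the CD+Veh lineage, in which the founding F0 female was on the control diet and received vehicle. Single eggs were measured in F1, F2 and F3 of that lineage. Every oocyte whose count column is headed F1, F2 or F3 CD+Veh was taken if its gene counts came to 100000 or more and 4000 or more genes had a count. This left 46 of the 59 control oocytes, out of 157 such oocytes of all lineages and 202 libraries in the series. They were 10 of 15 in F1, 16 of 20 in F2 and 20 of 24 in F3.

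The series followed C57Bl/6J mice over 3 generations after prenatal androgen exposure and held 11 groups, defined by generation, F0 diet and F0 hormone. Each library was the polyA RNA of 1 oocyte made with Smart-seq2, a full-length single-cell method without molecular identifiers. The diet and hormone of a label are those of the F0 female, not of the mouse that gave the oocyte, and no age is given. The F2 titles carry a number before the point that was read as the animal (4 animals: 2, 3, 13 and 14, with 4, 3, 5 and 4 oocytes kept), while the F1 and F3 titles name none. F1 and F3 are therefore 1 sample of cells each, no difference between the sets has a replicate check, and no p-value was computed. The gene counts of an oocyte ran from 158259 to 7660532 (median 935112.5) in F1, from 220777 to 13381587 (median 3938981.5) in F2 and from 309794 to 6892284 (median 2616474) in F3.

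An MII oocyte no longer transcribes its genome. It lives on messenger RNAs that were made and stored during growth, many of them with short polyA tails that are lengthened or removed as meiosis resumes, and most of this store is degraded after fertilisation. A polyA library of an MII egg therefore reads the part of the store that still carries a tail, together with any RNA of cumulus cells that stayed attached to the egg. Levels are given as CPM, the counts of a gene scaled to 1000000 gene counts of an oocyte or of a pooled set, when one gene is compared between oocytes. They are given as RPKM, the authors' values per kilobase, when different genes are compared.

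The 4 defining oocyte markers were present in the sets, and a few libraries stood apart. Btg4, which recruits the deadenylase that clears maternal mRNA, lay at 4188 to 7324 CPM (median 6153) in F1 oocytes, 3330.1 to 6191 CPM (median 5389.9) in F2 oocytes and 80.7 to 4522 CPM (median 4047) in F3 oocytes. Dppa3 (Stella), a maternal protector of the methylated zygotic genome, lay at 2304 to 4347 CPM (median 3751) in F1 oocytes, 2348 to 5985 CPM (median 4586) in F2 oocytes and 29.1 to 2829.8 CPM (median 1089.6) in F3 oocytes. Gdf9, a growth factor that the oocyte sends to cumulus cells, lay at 162 to 15666 CPM (median 8304) in F1 oocytes, 2574 to 15618 CPM (median 5664) in F2 oocytes and 67.8 to 9386 CPM (median 3734) in F3 oocytes. Zp3, a protein of the zona pellucida, lay at 3.44 to 329.7 CPM (median 231) in F1 oocytes, 69.0 to 629.6 CPM (median 231) in F2 oocytes and 3.23 to 246 CPM (median 138) in F3 oocytes. The single lowest F3 value of each of these 4 genes came from oocyte 21, with 80.7 CPM of Btg4, 29.1 CPM of Dppa3, 67.8 CPM of Gdf9 and 3.23 CPM of Zp3, so this library went against its label. Its spike-in share was 14.33%, against a median of 0.298% in F3, and its summed level of 34 cumulus and granulosa markers was 65792 CPM, against a median of 2983 CPM in F3. The next highest sum was 9214 CPM in F3 oocyte 19, and results that rest on F3 are also given without these 2 oocytes. In F1, oocytes 7 and 8 held 3.44 to 11.6 CPM of Zp3 and 162 to 584 CPM of Gdf9, with spike-in shares of 2.66% and 4.33%, while their Btg4 was 6739 and 4188 CPM.

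Markers of other cells were low apart from a few cumulus genes. The sum of the 34 cumulus and granulosa markers over pooled counts was 1308 CPM in F1, 1016 CPM in F2 and 3560 CPM in F3, or 3025 CPM in F3 without oocytes 19 and 21. Single oocytes held 44.8 to 2863 CPM in F1, 568 to 1799.9 CPM in F2 and 1330.0 to 65792 CPM in F3. Of these, Serpine2, a secreted protease inhibitor, held 1099, 683 and 1649.5 CPM in F1, F2 and F3, and Spp1 (osteopontin) held 52.9, 136 and 1286 CPM in F1, F2 and F3. Amh, Lhcgr, Areg, Ereg and Pgr, which granulosa and cumulus cells use for hormone and growth factor signalling, were at 0 in every control set. The part of attached cumulus cells in the differences of F3 below was not tested. Summed markers of ovarian stroma and theca reached 1.45, 3.94 and 2.76 CPM in F1, F2 and F3, and those of blood and immune cells 8.24, 2.56 and 10.42 CPM. Oviduct epithelium markers summed to 150.4, 269 and 86.5 CPM, and genes of 2-cell genome activation to 174, 130.3 and 65.8 CPM.

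**Figure D1:**
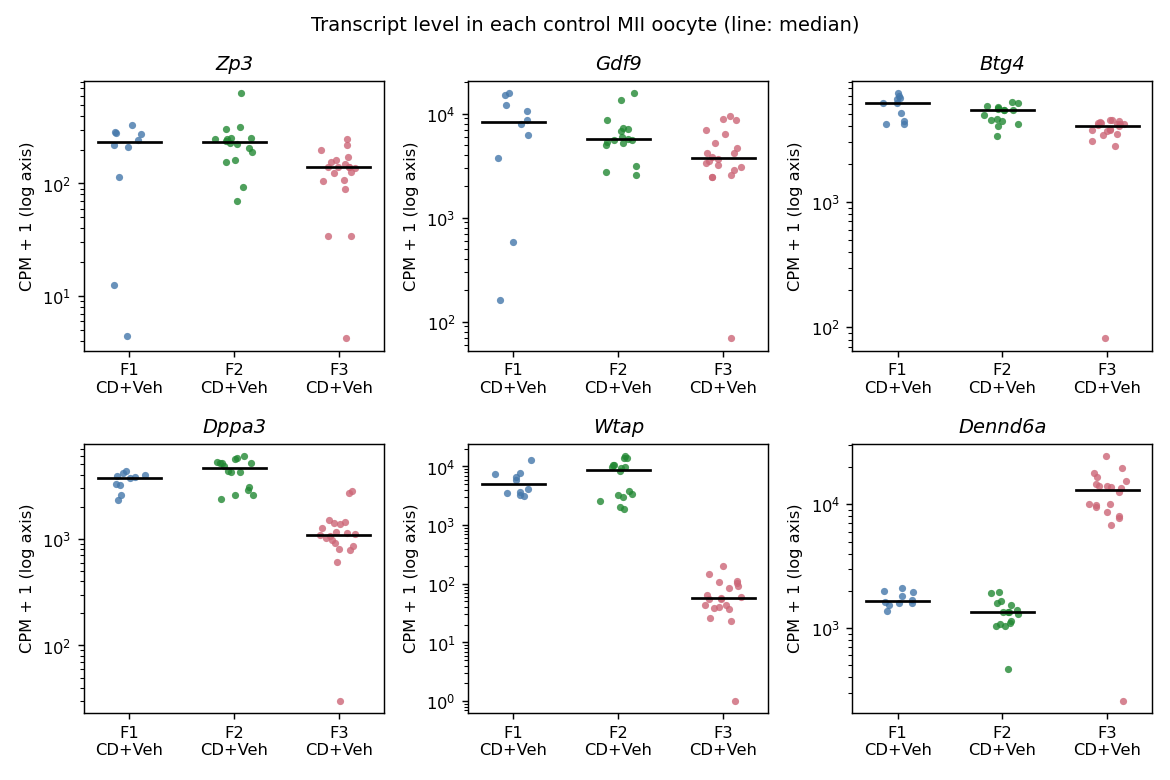
CPM plus 1 (log axis) of the 4 oocyte markers and of Wtap and Dennd6a in each control oocyte, by set, with a line at the median. F3 oocyte 21 is the lowest F3 point in all 6 panels; apart from it, Wtap in F3 (22.09 to 198 CPM) lies below the F1 and F2 points and Dennd6a in F3 (6737 to 24576 CPM) above them.

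The most abundant transcripts per length were Tcl1, Pttg1, H1foo and Bcl2l10. Ranked by the mean of the 3 set medians, Tcl1, a coactivator of the kinase Akt, came first with 14339, 10084 and 10353 RPKM in F1, F2 and F3. Single oocytes held 6483 to 35569 RPKM (median 14339) in F1, 4733 to 13160.0 RPKM (median 10084) in F2 and 153 to 17306 RPKM (median 10353) in F3. Pttg1, the securin that holds separase inactive until anaphase, followed with 10379.6, 15296 and 3138 RPKM in F1, F2 and F3, and its F3 median was the lowest of the 3. H1foo, the linker histone of the oocyte, held 10894, 8843 and 4276 RPKM in F1, F2 and F3. Bcl2l10, the Bcl-2 family member of oocytes, held 9488, 8515 and 5114 RPKM in F1, F2 and F3. Single oocytes spread widely around these medians, as in H1foo with 269 to 16652 RPKM (median 10894) in F1, 4409 to 16319.6 RPKM (median 8843) in F2 and 32.2 to 7006 RPKM (median 4276) in F3. The F3 minima of H1foo and Tcl1 came from oocyte 21, the library that went against its label. The next lowest F3 values were 3066 RPKM for H1foo and 6349 RPKM for Tcl1.

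Below these 4 came Mphosph6, Omt2b, Zbed3, Spin1, Oog3, Btg4, Dppa3, Ccdc69, E330034G19Rik, Gdf9, Omt2a, Trim61, Fbxw24, Rbbp7, Rfpl4 and Oas1d. Mphosph6, an exosome-associated phosphoprotein, had 5543, 6770.3 and 4272 RPKM in F1, F2 and F3. Spin1, a reader of histone methylation needed for meiotic resumption, was among the most even of the leading genes between sets, at 4237, 4186 and 3826 RPKM in F1, F2 and F3. The oogenesin Oog3 was highest in F3, at 2770.2, 2548 and 6861 RPKM in F1, F2 and F3. The oocyte maturation genes Omt2a and Omt2b were lowest there, with 3192, 5722 and 779.9 RPKM in F1, F2 and F3 for Omt2a and 4813, 8044 and 1029 RPKM in F1, F2 and F3 for Omt2b. Rbbp7, a histone-binding chaperone, had 2388, 1776 and 3807 RPKM in F1, F2 and F3. Oas1d stood 20th at a mean of 2328 RPKM and Wtap 21st at 2287 RPKM. Omt2a and Omt2b, Oas1d, Oog3, Trim61 and Tcl1 belong to families of close copies, and the counting is not given in the sources used here, so how reads were split within those families is uncertain.

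A small number of genes carried much of the RNA. The 20 highest genes of an oocyte held a median 17.8% of its counts in F1, 16.4% in F2 and 15.6% in F3, and the 1000 highest held 71.8%, 73.0% and 75.7%. The top 20 by RPKM were shared in 15 genes between F2 and F1, in 11 between F3 and F2, in 15 between F3 and F1 and in 11 between all 3 sets. Among the top 100, F2 and F1 shared 87 genes, F3 and F1 shared 62, and F3 and F2 shared 53. A count was present in every one of the 46 oocytes for 2177 genes, and for 3421 genes without F3 oocyte 21. After each oocyte was thinned to 100000 counts, these numbers were 1012 and 1722, and the median number of genes per oocyte was 6745.5 in F1, 6544.5 in F2 and 5367 in F3 (unthinned 9642.5, 10102 and 8225).

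**Figure D2:**
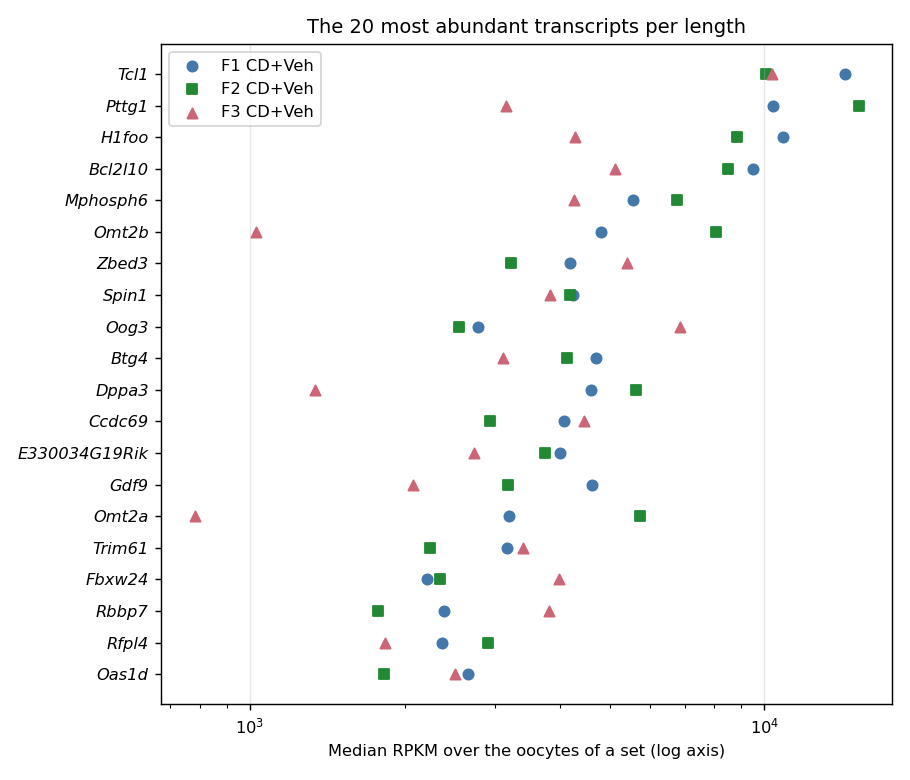
Median RPKM (log axis) over the oocytes of each control set for the 20 transcripts with the highest mean of the 3 set medians, highest at the top. F1 and F2 medians lie close together for most genes, while F3 lies lower for Pttg1, Omt2b, Dppa3 and Omt2a and higher for Oog3, Fbxw24 and Rbbp7.

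Some textbook egg products were not among the leaders and common housekeeping transcripts were low. The zona genes Zp1, Zp2 and Zp3, whose proteins are made during growth, held 93.5, 102 and 102 CPM in F1, F2 and F3, 93.9, 90.8 and 113 CPM in F1, F2 and F3 and 245, 229 and 135 CPM in F1, F2 and F3 of pooled counts. Bmp15, the partner of Gdf9, held 1484, 1682 and 2754 CPM in F1, F2 and F3. Of 80 cytosolic ribosomal protein genes, 4 reached a mean of 20 CPM over the 3 sets, and all 80 together summed to 276 CPM in F1, 457 CPM in F2 and 128 CPM in F3. Gapdh stood at 0.272, 0.193 and 0.976 CPM in F1, F2 and F3, and Ppia (cyclophilin A) at 0.0453, 0.0446 and 0 CPM in F1, F2 and F3. Ribosomal protein genes, Gapdh and Ppia have many near-identical processed copies in the mouse genome, so their counts are uncertain.

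The steadiest transcripts between oocytes of a set included Rab14, Eif5 and Chek1. The spread of a gene was the coefficient of variation (CV, SD over mean) of CPM between the oocytes of a set, averaged over the 3 sets, for the 1869 genes with a mean of at least 100 CPM. Rab14, a small GTPase of endosome traffic, had the lowest CV, 0.152. It lay at 937 to 1309 CPM (median 1135) in F1 oocytes, 931 to 1422 CPM (median 1079.7) in F2 oocytes and 637 to 1318 CPM (median 926) in F3 oocytes. The 3 ranges overlap, but the F3 median lies below every F1 and F2 oocyte. Eif5, the initiation factor that sets start codon choice, had a CV of 0.156 and lay at 616 to 822 CPM (median 739.8) in F1 oocytes, 467 to 812 CPM (median 625) in F2 oocytes and 354 to 823 CPM (median 539.8) in F3 oocytes. The checkpoint kinase gene Chek1 had a CV of 0.170, and within F1 it ran from 1129.7 to 1335 CPM.

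The other 17 of the 20 steadiest included Orc5 and Orc6 of the origin recognition complex, with CVs of 0.171 and 0.182. Cul1, the scaffold of SCF ubiquitin ligases, had 0.188, the deadenylase subunit Cnot7 0.195, the autophagy gene Atg5 0.192, the microtubule-end protein Mapre1 0.180, the ribosome maturation factors Sbds and Rsl1d1 0.178 and 0.169, and the 14-3-3 protein gene Ywhae 0.190. Pld1, Tbc1d15, Rfpl4, Mllt10, Arhgap20os, Zfp655, Npm1 and Rab11a made up the rest, Rab11a closing the 20 at 0.197 with Ccdc117 next at 0.198. The lead 7 genes in this order (Rab14, Eif5, Pld1, Tbc1d15, Rsl1d1, Chek1 and Orc5) stayed among the 20 under 9 or 10 of 10 alternative settings, against 3 for Rab11a and 4 for Npm1. Being steady within sets did not mean being level across them: Rab14 differed by -0.16 on the log2 scale for F3 over F2, whereas Zfp655 differed by 1.69, Orc5 by 1.69 and Cnot7 by 1.47. Of the 20, 6 lay past a 2-fold difference in a comparison of F3, beside 729 (39.0%) of all 1869 genes.

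The median CV over the 1869 genes was 0.372 in F1, 0.265 in F2 and 0.472 in F3 (0.406 without oocytes 19 and 21), where sampling of reads alone would give 0.105, 0.0507 and 0.0535. The most variable gene was Vcan, the cumulus matrix proteoglycan, with a CV of 2.97, and Spp1, Akr1c18, Acsbg1, Ephx2, Psap, Actb, Akr1cl, Sdc1 and Lgmn followed. Vcan lay at 0 to 16.9 CPM (median 0) in F1 oocytes, 0 to 19.43 CPM (median 0) in F2 oocytes and 0 to 10333 CPM (median 0.502) in F3 oocytes. Its F3 maximum was oocyte 21, and the F3 maximum without oocytes 19 and 21 was 186 CPM. Akr1c18, the steroid-inactivating 20-alpha hydroxysteroid dehydrogenase of luteinised cells, lay at 0 to 468 CPM (median 6.21) in F1 oocytes, 0 to 134 CPM (median 0) in F2 oocytes and 0 to 3267 CPM (median 12.4) in F3 oocytes. For each of these 10 genes the F3 maximum was lower without oocytes 19 and 21. Vcan, Akr1c18, Acsbg1, Ephx2, Psap, Akr1cl and Lgmn met the minimum of 100 CPM only through F3, their F1 and F2 means being below it. For Vcan the means over oocytes were 2.48, 2.28 and 534 CPM in F1, F2 and F3, and most of the F3 mean came from oocyte 21.

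Of 16 genes often used as references in quantitative PCR, 11 lay under a mean of 100 CPM. Hprt was the steadiest of the remaining 5, with a CV of 0.294 (rank 308) and 331 to 642 CPM (median 516) in F1 oocytes, 196 to 622 CPM (median 475) in F2 oocytes and 103 to 587 CPM (median 386) in F3 oocytes. Its pooled level had log2 folds of -0.36 for F2 over F1, -0.11 for F3 over F2 and -0.47 for F3 over F1. Ywhaz had a CV of 0.495, or 0.260 without F3 oocytes 19 and 21. Actb, the cytoplasmic actin, was the least steady with 1.84 (0.985 without those oocytes) and lay at 48.2 to 733 CPM (median 181) in F1 oocytes, 69.7 to 1165 CPM (median 233) in F2 oocytes and 0 to 1456 CPM (median 8.17) in F3 oocytes. Its log2 fold for F3 over F2 was -4.11.

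**Figure D3:**
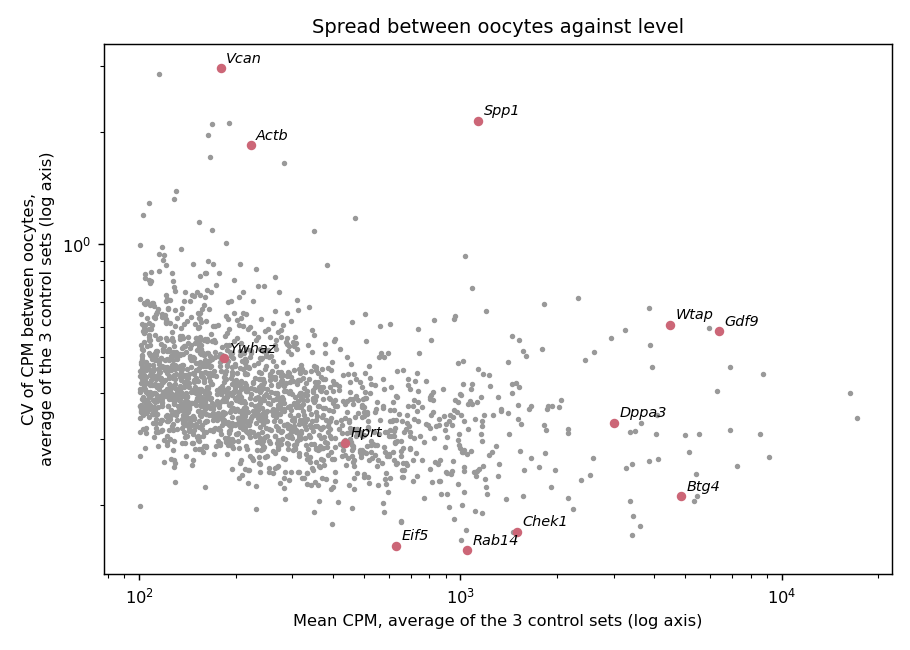
CV of CPM between oocytes against mean CPM, both averaged over the 3 control sets (log axes), for the 1869 genes with a mean of at least 100 CPM. Rab14, Eif5 and Chek1 lie at the bottom and Vcan, Spp1 and Actb at the top; Hprt sits below Ywhaz, and the abundant Gdf9 and Wtap are more spread than Btg4.

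Between the sets, F2 and F1 differed in few genes. A gene was counted as higher or lower when the pooled CPM and the median CPM both differed at least 2-fold the same way, among 4621 genes whose mean over the pooled sets was at least 20 CPM. All folds are log2 of CPM plus 1, which understates changes of low genes. For F2 over F1, 18 genes (0.3895%) were higher and 16 (0.3462%) lower, and the log2 pooled levels of the sets had a Pearson r of 0.962 across genes, which are not independent replicates. Of these 18 and 16 genes, 4 and 6 remained without F2 animal 3, and 11 and 12 with equal weight of oocytes. Most counts of the F1 pool came from oocytes 1, 6 and 11, with 4007989, 6332671 and 7660532 counts. With TMM factors, which correct for composition, 4 were higher and 44 lower, and the median fold of all tested genes was -0.074, against 0.11 with library totals. Among the higher ones, Lsm14b, an RNA-granule protein of oocytes, lay at 352 to 1098 CPM (median 460.1) in F2 and 5.78 to 242 CPM (median 171) in F1, without overlap. Its log2 fold was 1.65, and the 4 F2 animals held 502, 853, 432 and 461 CPM.

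The other leading genes whose values follow stayed below the F2 level of Lsm14b. The scaffold gene Sash1 had 52.4 CPM in F2 and 11.6 CPM in F1, the ubiquilin Ubqln2 142 CPM and 50.3 CPM, and Khdc1a 95.8 CPM and 34.3 CPM. The maternal factor Zar1, which binds maternal mRNA, had 473 CPM in F2 and 232 CPM in F1. Among the lower genes, Kif20a, a kinesin of the central spindle, had 55.2 CPM in F2 and 155 CPM in F1. Dcakd had 95.3 CPM and 257 CPM, Trim75 172 CPM and 445 CPM, and the autophagy gene Becn1 51.7 CPM and 124 CPM. Rexo1, Insm1, Rap2a, Xpo7, Cobl and Sav1 were also higher in F2, and Scn10a, Rnf141, Muc20, Col4a3, Smyd3 and 4930503L19Rik lower. Every F2 oocyte lay above every F1 oocyte for 10 genes (0.2164%) and below for 2 (0.04328%).

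The animals of F2 give the only yardstick within a set. By the same fold rule, animals 13 and 14 differed in 64 genes (1.385%) and animals 2 and 3 in 161 (3.484%). Between animals of different pairs the counts were 373 (8.072%, animals 2 and 13), 574 (12.42%, 2 and 14), 753 (16.3%, 3 and 13) and 832 (18%, 3 and 14). Pooled F1 differed from single F2 animals in 71 to 574 genes and pooled F3 in 1425 to 1735. The log2 levels of the 4 animals had a median SD of 0.366 per gene, with the 90th percentile at 0.709. Pooled F1 lay beyond the range of the animals by at least 1 on the log2 scale for 3 genes (0.0649%) and pooled F3 for 1027 genes (22.23%). Wtap, Paip1, Mtmr2, Spp1 and the ribosomal RNA unit Rn45s varied most between the animals. Wtap had 3196 and 2322 CPM in animals 2 and 3, against 10256 and 12194 CPM in animals 13 and 14. The F2 over F1 counts moved with single animals: they were 7 higher and 14 lower without animal 3, 77 and 30 without animal 13, 15 and 32 without animal 2, and 41 and 14 without animal 14.

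F3 stood apart from both earlier sets, and with library totals as the scale more genes were lower than higher in it. For F3 over F2, 465 genes (10.06%) were higher and 1042 (22.55%) lower, with r = 0.727 between the log2 levels. For F3 over F1, 373 (8.072%) were higher and 879 (19.02%) lower, with r = 0.777. The 2 comparisons share the F3 oocytes, and 276 genes were higher and 803 lower in both. Without oocytes 19 and 21 the counts were 479 and 1037 for F3 over F2 and 385 and 855 for F3 over F1. The split depends on the scaling: with TMM factors the median fold of all tested genes moved to 0.30 for F3 over F2, against -0.088 with library totals, and 872 genes were higher and 761 lower. For F3 over F1 TMM gave 573 higher and 729 lower. The split for F3 over F2 also moved with the minimum, to 561 higher and 2710 lower with none and 266 and 365 at 100 CPM. Because the minimum is on the mean of the 3 sets, a gene high in F1 and F2 reaches it more easily than one high in F3 alone. The labels name no library batch, so generation and library batch cannot be told apart.

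**Figure D4:**
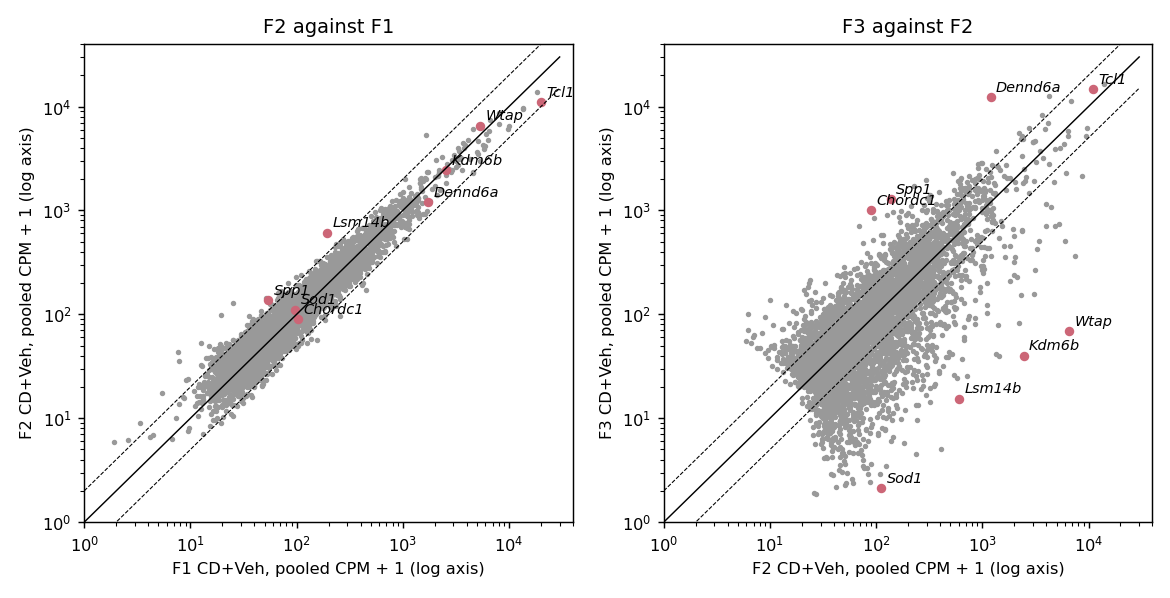
Pooled CPM plus 1 (log axes) of the 4621 tested genes, F2 against F1 on the left and F3 against F2 on the right, with the line of equality and dashed lines at 2-fold. The cloud on the left is narrow (r = 0.962) and that on the right wide (r = 0.727), with Wtap, Kdm6b and Sod1 far below and Dennd6a and Chordc1 far above the line.

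The genes lowest in F3 relative to F2 included abundant regulators of mRNA and chromatin. Wtap, the adaptor of the enzyme that writes N6-methyladenosine on mRNA, lay at 3083 to 12914 CPM (median 5089) in F1 oocytes, 1886 to 15099.9 CPM (median 8862) in F2 oocytes and 0 to 198 CPM (median 55.5) in F3 oocytes. Every F3 oocyte lay below every F1 and F2 oocyte. The pooled levels with exact Poisson 95% intervals, which cover counting error only, were 5383 CPM (5352 to 5413) in F1, 6562 CPM (6543 to 6582) in F2 and 67.9 CPM (65.8 to 70.0) in F3, a log2 fold of -6.57 for F3 over F2. Alkbh5, the demethylase that removes the same mark, had 1345, 1439 and 38.5 CPM in F1, F2 and F3. Kdm6b, a demethylase of histone H3 lysine 27, lay at 127 to 3992 CPM (median 1997) in F1 oocytes, 1156 to 4105 CPM (median 3067) in F2 oocytes and 0 to 98.9 CPM (median 35.1) in F3 oocytes. Its ranges do not overlap either, and its log2 fold for F3 over F2 was -5.93.

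Bhlhe41, a repressor of the circadian clock, had 334, 403 and 4.11 CPM in F1, F2 and F3. Sod1, the copper-zinc superoxide dismutase, lay at 40.5 to 119.8 CPM (median 93.7) in F1 oocytes, 75.5 to 147 CPM (median 116) in F2 oocytes and 0 to 6.68 CPM (median 0.792) in F3 oocytes, with no overlap between F3 and the other sets and a log2 fold for F3 over F2 of -5.71. Igsf11, an adhesion molecule, had 229, 235 and 3.4999 CPM in F1, F2 and F3, and Lsm14b had 193, 607 and 14.45 CPM in F1, F2 and F3. Lrrc8a, the core of the volume-regulated anion channel, had 975, 724 and 24.6 CPM in F1, F2 and F3. Agpat1, an acyltransferase of phospholipid synthesis, had 293, 242 and 8.67 CPM in F1, F2 and F3, and Sema4b, Pfdn1, Arglu1 and Rdh13 were also among the lowest. Every F3 oocyte lay below every F1 and F2 oocyte for 121 genes (2.618%), or 130 without oocytes 19 and 21.

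Fewer genes were far higher in F3. Dennd6a, an exchange factor for Rab GTPases, lay at 1371 to 2094 CPM (median 1645) in F1 oocytes, 468 to 1936 CPM (median 1338) in F2 oocytes and 255 to 24576 CPM (median 13049.9) in F3 oocytes, and F3 oocyte 21 alone fell below the other sets. The pooled level was 1742 CPM (1725 to 1760.0) in F1, 1196 CPM (1188 to 1204) in F2 and 12237 CPM (12209 to 12265) in F3, a log2 fold of 3.35 for F3 over F2. Chordc1, a partner of Hsp90, lay at 27.6 to 135 CPM (median 88.4) in F1 oocytes, 63.4 to 114 CPM (median 90.5) in F2 oocytes and 297 to 2235 CPM (median 1022) in F3 oocytes, with every F3 oocyte above all others and a log2 fold for F3 over F2 of 3.49. Usp14, a deubiquitinase of the proteasome, had 75.5, 67.6 and 710.2 CPM in F1, F2 and F3, Dcakd 257, 95.3 and 839.9 CPM in F1, F2 and F3, the ferritin receptor Ncoa4 45.5, 22.27 and 199.7 CPM in F1, F2 and F3 and the reductase Far2 6.25, 9.02 and 137 CPM in F1, F2 and F3. Gpr137c, Muc20, Plagl1 and Zfp866 were also higher in F3 than in both earlier sets, and Ptpn9 than in F1.

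The ranges did not overlap for 7 of the higher genes (0.1515%), among them Chordc1, Ogt, Capza2, Gnai3, Ythdf3 and Hif1a, and for 43 without oocytes 19 and 21. They were named after their values were seen. Some of the largest folds lay in steroidogenic and cumulus genes, and the summed cumulus markers were higher in F3 as well. Spp1 had 52.9, 136 and 1286 CPM in F1, F2 and F3 (1069 CPM in F3 without oocytes 19 and 21), Akr1c18 8.42, 22.63 and 213 CPM in F1, F2 and F3 (141 CPM), Hsd3b1 4.35, 16.6 and 102 CPM in F1, F2 and F3 (64.0 CPM), Akr1c14 2.35, 7.98 and 93.2 CPM in F1, F2 and F3 (56.3 CPM) and Ephx2 6.70, 42.5 and 148 CPM in F1, F2 and F3 (88.9 CPM). The F3 median over oocytes was 1.94 CPM for Hsd3b1 and 12.4 CPM for Akr1c18, against 1192 CPM for Spp1. Other members of the cumulus list were mixed. Cyp11a1 had 4.21, 1.05 and 25.93 CPM in F1, F2 and F3 (8.38 CPM in F3 without oocytes 19 and 21). Ptgs2 had 0.408, 0.951 and 17.62 CPM in F1, F2 and F3 (5.62 CPM). The F3 median over oocytes was 0 for both. Pooled Vcan, Inhbb, Star and Tnfaip6 were also higher in F3 than in both earlier sets. Cyp19a1 had 100, 80.7 and 106 CPM in F1, F2 and F3. Inha, Inhba and Fst were lower in F3 than in F2 but higher than in F1. The Akr1c and Hsd3b genes have close copies, and the split of their reads is uncertain.

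To show the transcripts at both ends of the difference and their base composition, the start of the coding sequence is given for the 3 lowest and the 3 highest genes of F3 over F2 with a mean of at least 100 CPM, cumulus markers and Usp14 passed over. Each run is the first 60 bases from the start codon of the longest coding sequence in GENCODE vM21 (GRCm38, the assembly that mm10 denotes), 5′ to 3′, with G and C in capitals.
Wtap: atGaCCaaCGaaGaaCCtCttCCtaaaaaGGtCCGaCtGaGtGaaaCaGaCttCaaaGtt
Bhlhe41: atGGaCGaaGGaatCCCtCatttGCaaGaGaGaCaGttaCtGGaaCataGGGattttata
Kdm6b: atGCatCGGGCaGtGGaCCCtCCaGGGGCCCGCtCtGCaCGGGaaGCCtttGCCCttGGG
Chordc1: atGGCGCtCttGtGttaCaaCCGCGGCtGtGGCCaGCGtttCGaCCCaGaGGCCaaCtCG
Dennd6a: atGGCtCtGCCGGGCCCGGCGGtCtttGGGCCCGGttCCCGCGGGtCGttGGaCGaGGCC
Dcakd: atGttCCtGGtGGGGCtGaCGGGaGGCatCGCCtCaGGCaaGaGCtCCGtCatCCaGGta
Wtap lies at chr17:12966796-12994169, minus strand, Bhlhe41 at chr6:145858243-145865558, minus strand, Kdm6b at chr11:69398508-69413675, minus strand, Chordc1 at chr9:18292125-18317442, plus strand, Dennd6a at chr14:26573856-26634322, plus strand and Dcakd at chr11:102994047-103028333, minus strand. G and C made up 46.8%, 64.2% and 61.7% of the whole coding sequence of the first 3 and 41.7%, 46.6% and 58.9% of the last 3. The 2 groups of 3 overlap, and the starts printed do not follow the whole: Bhlhe41 begins with few capitals and Dennd6a with many.

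Across all genes, the difference of F3 moved with the base composition and length of the transcript. In 5 equal bins of transcript GC content, from lowest to highest, the median log2 fold for F3 over F2 was 0.51, 0.24, 0.0063, -0.42 and -0.91. For F2 over F1 the same bins had 0.076, 0.069, 0.11, 0.14 and 0.20. Genes higher in F3 than in F2 had a median transcript GC of 42.3%, lower ones 50.1% and all tested genes 46.6%. The shortest of 5 equal bins by transcript length (375 to 2249 bases) had a median log2 fold of -0.62 for F3 over F2, and the other bins -0.020 to 0.045. GC and length were known for 4603 of the 4621 genes (99.6%). After a smooth trend on GC and then on length was subtracted, 456 genes were higher and 706 lower for F3 over F2, of which 268 and 601 were among the genes called before. Single genes did not all follow it: Wtap has 39.6% GC over its longest transcript and was the lowest.

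**Figure D5:**
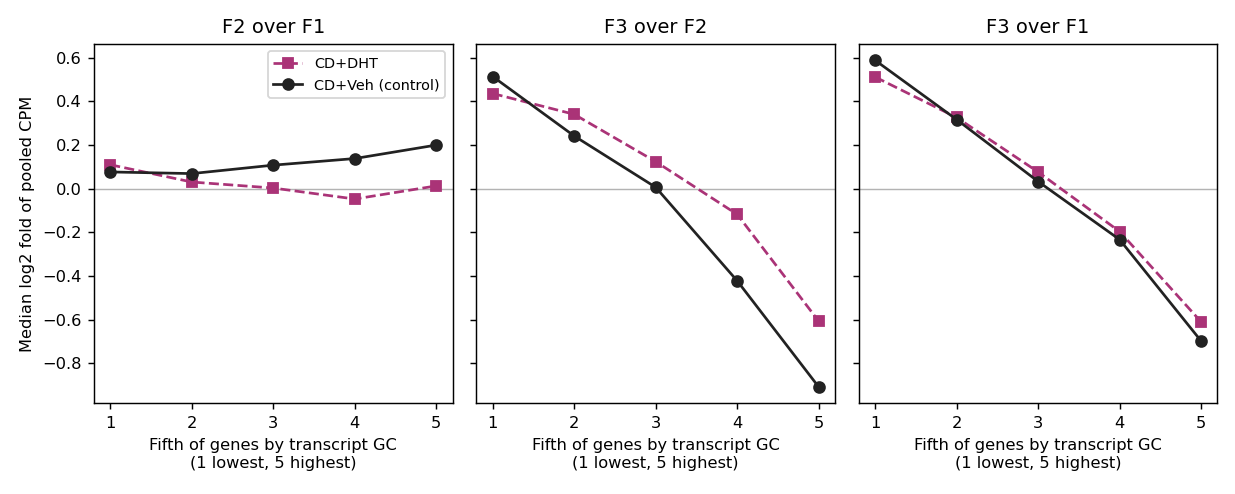
Median log2 fold of pooled CPM in 5 equal bins of genes by transcript GC content (1 lowest, 5 highest) for the control oocytes and, as a second set of libraries, the CD+DHT oocytes. The lines for F2 over F1 stay between -0.047 and 0.20, and both lines for F3 over F2 decline from the lowest to the highest bin, to -0.91 in controls and -0.61 in CD+DHT.

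By function, genes of mitochondrial respiration and of the proteasome were among those lower in F3. For comparison, 32.6% of all tested genes lay past the fold for F3 over F2, 10.06% higher and 22.55% lower. Of 77 nuclear genes of the respiratory chain and ATP synthase, 18 reached the minimum, and 10 of them were lower in F3 than in F2 and 0 higher, with a median log2 fold of -2.64 (-0.088 over all genes). The minimum of 20 CPM is on the mean of the 3 sets. Of the 10 lower genes, only Cox5a lay above it in F3, at 30.9 CPM. Ndufa4, Cox6c, Ndufa1, Cox8a, Cox6a1, Cox7a2, Ndufb2, Ndufb6 and Ndufb8 reached it through F1 and F2 and lay under it in F3. The count and the median therefore rest largely on genes that passed the rule through the sets where they are high. The same minimum applies to the lists below. Ndufa4 had 156, 324 and 13.38 CPM in F1, F2 and F3, Cox6c 41.9, 88.2 and 2.64 CPM in F1, F2 and F3, Ndufa1 42.3, 75.5 and 2.31 CPM in F1, F2 and F3 and Cox8a 153, 186 and 11.1 CPM in F1, F2 and F3. Uqcrc2, a core subunit of complex III, held 423, 374 and 406 CPM in F1, F2 and F3. Atp5b, the catalytic subunit of ATP synthase, had 333, 296 and 249 CPM. After the GC and length trend was removed, the median of these 18 was -0.36, with 7 lower and 1 higher, and the log2 fold of Cox8a turned to 0.096.

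Of 39 proteasome genes, 21 reached the minimum, and 11 were lower and 1 higher in F3 than in F2, with a median of -1.004 (-0.22 after that correction, with 5 lower and 1 higher, and -0.62 with TMM, with 7 lower and 1 higher). Among all 4621 tested genes, that correction gave 706 lower and 456 higher, and TMM 761 lower and 872 higher. Psma7, an alpha ring subunit, lay at 532 to 1783 CPM (median 1265) in F1 oocytes, 1269 to 2847 CPM (median 1867) in F2 oocytes and 103 to 444 CPM (median 198) in F3 oocytes. Its F3 range was below that of F1 and of F2. Psma2 had 608, 629 and 182 CPM in F1, F2 and F3, Psmb2 131, 179 and 40.5 CPM in F1, F2 and F3 and Psmc3 21.1, 39.4 and 7.69 CPM in F1, F2 and F3. Of 4 ribosomal protein genes that reached the minimum, Rps15a and Rpl22 were lower in F3, and Rps15a was higher in F2 than in F1.

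The maternal chromatin genes had 6 of 18 lower and 1 higher for F3 over F2 (median -0.92, and -0.53 with TMM). With library totals 38.9% of them lay past the fold, beside 32.6% of all tested genes. After the GC and length correction 3 were lower and 1 higher, with a median of -0.17. Npm2, the nucleoplasmin that decondenses sperm chromatin, lay at 145 to 439.5 CPM (median 372) in F1 oocytes, 229.7 to 1082 CPM (median 532) in F2 oocytes and 0 to 86.3 CPM (median 30.8) in F3 oocytes, and the F3 range was below both others. Uhrf1, which guides maintenance methylation, had 160.4, 322 and 69.0 CPM in F1, F2 and F3, and Smarca4, the remodelling ATPase, 24.3, 42.4 and 4.02 CPM in F1, F2 and F3. Kdm1b, the demethylase needed for maternal imprints, was higher, with 153, 221 and 509.9 CPM in F1, F2 and F3. H1foo had a log2 fold of -0.87 for F3 over F2 and -1.38 for F3 over F1, the second past the fold, and 0.74 and 0.22 after the GC and length correction. Ezh2 held 1019, 1166 and 1014 CPM in F1, F2 and F3.

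The genes of MII arrest and M phase had 7 of 27 lower and 3 higher, with a median log2 fold of 0.20. These 37.0% past the fold are near the 32.6% of all tested genes (22.55% lower and 10.06% higher). That split depended on the setting, with 5 lower and 6 higher under TMM and under DESeq2 size factors and 3 lower and 4 higher after the GC and length correction. Over all 4621 tested genes, TMM gave 761 lower and 872 higher, and the correction 706 lower and 456 higher. Ccnb1, cyclin B1, had 911, 847 and 1845 CPM in F1, F2 and F3 and was higher in F3, while the kinase Mos, which maintains the arrest, had 1149, 816 and 398 CPM in F1, F2 and F3. Pttg1 had 8083, 8751 and 2156 CPM in F1, F2 and F3, Cks2 364, 293 and 56.4 CPM in F1, F2 and F3 and Ube2c, the ubiquitin-conjugating enzyme of the anaphase-promoting complex, 52.0, 59.3 and 10.41 CPM in F1, F2 and F3. The checkpoint gene Mad2l1 stayed within 2-fold, with 1176, 1056 and 1573 CPM in F1, F2 and F3.

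The subcortical maternal complex, which the embryo needs for its first cleavages, had members on both sides, 2 higher and 2 lower of 7. These 57.1% past the fold for F3 over F2 stand beside 32.6% of all tested genes (10.06% higher and 22.55% lower). Nlrp5 (Mater) lay at 293 to 582 CPM (median 412) in F1 oocytes, 194 to 509 CPM (median 269.5) in F2 oocytes and 6.46 to 1384 CPM (median 893) in F3 oocytes. Nlrp4f was the other higher one, with 771, 796 and 1959 CPM in F1, F2 and F3. Ooep (Floped) had 136, 164 and 17.53 CPM in F1, F2 and F3, and Tle6 109, 169 and 43.9 CPM in F1, F2 and F3. Genes of mRNA storage and decay had 4 of 16 lower and 2 higher, against 4 lower and 5 higher with TMM and 5 lower and 3 higher after the GC and length correction. With library totals 37.5% of them lay past the fold, near the 32.6% of all tested genes. Paip1, a partner of the polyA-binding protein, had 6579, 7483 and 366 CPM in F1, F2 and F3, Zar1 232, 473 and 76.2 CPM in F1, F2 and F3 and the uridyltransferase Zcchc6 78.9, 81.6 and 263 CPM in F1, F2 and F3. The germ cell regulator Dazl held 980.4, 1187 and 1557 CPM in F1, F2 and F3.

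The remaining groups were small. Their counts for F3 over F2 stand beside 32.6% of all tested genes past the fold (10.06% higher and 22.55% lower). None of 5 secreted factor and receptor genes passed the fold (0 of 5), and of 5 zona and sperm contact genes only Folr4 (Juno) did, with 40.0, 32.8 and 12.7 CPM in F1, F2 and F3 and a log2 fold of -1.30, which was 0.50 after the GC and length correction. Among 9 oocyte transcription factors Sall4 was lower, with 1877, 1622 and 354 CPM in F1, F2 and F3, and the homeobox genes Obox1, Obox2 and Obox5 stayed within 2-fold. Of the 4 markers, Dppa3 was lower in F3. Of 6 stress genes, Hsp90aa1 and Hspe1 were among 3 lower ones, with 740.2, 1007 and 251 CPM in F1, F2 and F3 for Hsp90aa1, and Dnajb1 was higher, with 54.6, 62.0 and 149 CPM in F1, F2 and F3. The sign of a list's median for F3 over F2 was checked with TMM, with DESeq2 size factors, without oocytes 19 and 21 and after the GC and length correction. It changed for the secreted factors (-0.30, and 0.090 with TMM), the transcription factors (-0.39, and 0.0020 with TMM), the mRNA storage genes (-0.082, and 0.31 with TMM) and the reference genes (-0.11, and 0.28 with TMM). It also changed for the zona genes (-0.76, and 0.50 after the correction) and the 4 markers (-0.54, and 0.059 after it).

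The differences of F3 recurred in libraries that the control sets do not share. Few genes past the fold for F2 over F1 passed it there, but few of all 4621 tested genes did, 4 higher and 10 lower. In the CD+DHT lineage, whose F0 female received dihydrotestosterone on the control diet, 8 oocytes of F1, 25 of F2 and 13 of F3 passed the same filter. Of the 465 genes higher for F3 over F2 in controls, 463 had the same sign there and 273 passed the fold, where 8.829% of all genes were higher. Of the 1042 lower ones, 1023 had the same sign and 691 passed, where 16.19% of all were lower. The folds of the 2 lineages had a Pearson r of 0.920 across genes for F3 over F2, 0.888 for F3 over F1 and 0.411 for F2 over F1, with all points of a lineage drawn from the same libraries. For F3 over F1, 373 of 373 higher genes had the same sign and 184 passed (6.644% of all genes), as did 864 and 629 of the 879 lower ones (15.86% of all). For F2 over F1, 15 of 18 higher genes had the same sign and 2 passed (0.08656% of all), and 12 of 16 lower genes had the same sign and 0 passed (0.2164% of all). Of all tested genes in that lineage, 53.0% were higher and 47.0% lower in sign for F2 over F1, and 51.4% and 48.6% for F3 over F2. No label names a library batch for this lineage either. Generation and a batch common to the F3 libraries of both lineages cannot be told apart by this recurrence.

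Wtap had 6942, 8833 and 45.5 CPM in F1, F2 and F3 of the CD+DHT lineage. Dennd6a had 1503, 1264 and 11169 CPM, and Sod1 107, 85.9 and 1.04 CPM. In each, F3 stood apart from F1 and F2 in the same direction as in the controls. Lsm14b, whose F2 and F1 ranges did not overlap in controls, had 489 CPM in F2 and 332 CPM in F1 of the CD+DHT lineage. Spp1 had 285, 208 and 601 CPM in F1, F2 and F3.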

How the data were processed

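Gene counts of 202 single-oocyte libraries were deposited by the authors as raw counts per gene symbol, with RPKM values, which divide by gene length and depth, of the same oocytes. The submitters' processing notes name STAR 2.4.2a, Seurat 2.0 and mm10. How reads were counted, with which annotation and whether by strand is not stated in the sources at hand, so overlapping antisense genes cannot be told apart. Of 24582 lines, 92 were ERCC spike-ins and 1 was eGFP (0 counts), all left out of totals. The other 24489 held 23995 symbols, with 494 repeated lines summed; 25 date-like and 88 merged symbols were not named.

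The control oocytes kept are described in the report. Within a control set no libraries were identical (0 pairs), and the lowest chi-square was 2.45 per degree of freedom. PCR copies without molecular identifiers are not independent molecules, so Poisson intervals cover counting error only. Counts were pooled by set and scaled to CPM, with library totals as the scale. Folds are log2 of CPM plus 1. The 6 genes listed at 0 RPKM despite counts were left out of the abundance ranking. The code for the calls was checked on simulated data with known changes. No test of significance was made, with 1 sample of cells a group. Where labels do not name separate animals, spread between oocytes may be technical or biological.

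The members, gene lists and rules were chosen with earlier results of these data known. The genes named are the 4 markers, the 20 most abundant, the 20 steadiest and 10 most variable, the 10 largest folds each way per comparison, up to 4 abundant and 3 past the fold per list, the 5 most variable between F2 animals and the reference genes; a few more were named after their values were seen, as said there. Symbols were matched to GENCODE vM21 (GRCm38) for GC, length and position. Alternatives were TMM factors (edgeR 4.0.16), size factors (DESeq2 1.42.0), other minimums, pseudocount, weights, filters, thinning, RPKM, left-out oocytes and animals, and a lowess correction for GC and length. That correction, the pairs of F2 animals and the alternatives for the CD+DHT lineage were added after seeing the data. Python 3.11.15, numpy 2.4.6, pandas 2.3.3, scipy 1.17.1, statsmodels 0.14.6 and R 4.3.3 were used. The authors' 3 other normalised tables were not used here. The values of 1 gene higher in F3 are not reported here.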

Additional observations from a re-analysis of the deposited data

Results flagged for a closer look

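For 83 groups of 4 to 10 values of leading and steady genes, the highest or lowest value was set against the others by Dixon's 95% criterion, which chance passes in about 1 of 20 groups. It was passed in 6 of the 83. In F2, animal 2 had 14481 CPM of H1foo, the linker histone of the oocyte, with the nearest animal at 9160 CPM (9159.8). In F2, animal 3 had 888 CPM of Pld1, with the nearest at 766 CPM. In F1, oocyte 7 had 9458 CPM of E330034G19Rik, with the nearest at 7409 CPM. In F1, oocyte 2 had 3897 CPM of Trim61, with the nearest at 5390 CPM (5389.9). In F1, oocyte 8 had 1519 CPM of Fbxw24, with the nearest at 2563 CPM, and 4309 CPM of Cul1, with the nearest at 3187 CPM. F1 oocytes 7 and 8 are those with low Zp3 and Gdf9 and the highest spike-in shares of F1.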

How the results depend on the processing

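Of the counts and single-gene values recomputed, 12587 stayed within 1.5 times the count, or within the spread of the value, 467 moved and 8 folds past the threshold turned sign. Medians of all genes and of lists that changed sign stand beside those results. The cause was not tested except where fewer genes or oocytes follow from the setting. TMM gave 4 higher and 44 lower genes for F2 over F1, 872 higher for F3 over F2 (53.4% of calls, against 30.9%) and 573 higher for F3 over F1. DESeq2 size factors gave 4, 48, 945 and 606. Of the lower genes, 761 of 1042 remained so with TMM for F3 over F2 and 729 of 879 for F3 over F1. A minimum of 5 CPM gave 78 higher and 36 lower for F2 over F1 and 1908 and 1570 lower for F3 over F2 and over F1. A minimum of 100 CPM gave 3 and 4 for F2 over F1, 266 and 365 for F3 over F2 and 232 and 324 for F3 over F1. No minimum gave 215 and 68 for F2 over F1 and 2710 and 2089 lower for F3. For F2 over F1, equal weight of oocytes gave 28 higher, thinning 77 higher and 67 lower, and the GC and length correction 11 and 25. That correction turned the log2 fold for F3 over F2 of Folr4 to 0.50, of Cox8a to 0.096 and of Psmb6 to 0.66, and for F3 over F1 of Folr4 to 0.18, of Cox8a to 0.044, of Psmb6 to 0.21, of Psmb2 to 0.28 and of H1foo to 0.22. Leaving out 1 F1 or F3 oocyte or F2 animal gave 7 to 77 higher (41 without animal 14) and 14 to 32 lower genes (30 without animal 13) for F2 over F1, 452 to 522 and 904 to 1165 for F3 over F2, and 346 to 392 and 831 to 935 for F3 over F1. Without 1 F2 animal the median SD between F2 animals was 0.282 to 0.382, the median CV 0.371 to 0.384, and 17 to 19 of the 20 steadiest genes stayed. The median CV was 0.518 with a minimum of 20 CPM. Of the 20, 9 stayed under the stricter oocyte filter, 9 by SD of log2 values and 12 after thinning. In CD+DHT, 1 of the genes higher for F2 over F1 passed the fold under the stricter filter. No paired analysis was possible because the labels name no animals in F1 and F3 and no test was made. Thin F1 depth (median 935112.5 counts) limits low genes most.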
